A study of Mus musculus with 13 samples.

Results

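The genes described here are 10 genes of the mouse liver that are named for apolipoproteins or encode a protein that loads lipid into lipoproteins: Apoa1, Apoa2, Apoa4, Apoa5, Apob, Apoc2, Apoc3, Apoe, Apoh and Mttp. They are picked out by a rule on gene symbols, which itself uses no measured value, and make up 10 of the 53392 genes in the count table. All 10 passed the filter on low counts, which kept 14317 genes, and the lowest count of any of them in any mouse was 1827.

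Liver messenger RNA of 13 female mice, 8 to 14 weeks old, was sequenced after 4 weeks on a liquid diet with 28% of its calories from ethanol. The series description gives as the aim of the sequencing to find which control suits a liver transgene for the ceramidase ASAH1, a genetic or a dietary one; the study itself is about ceramide in the liver and steatosis in mice fed alcohol. All mice were homozygous for Rosa26-loxP-stop-loxP-rtTA, a silenced doxycycline-dependent activator, and for Albumin-Cre, which releases it in hepatocytes; ASAH+ mice also carried TRE-ASAH1, and ASAH- littermates did not. The ASAH- Etoh-Dox group (4 mice) lacked the transgene and received ethanol with doxycycline (Dox, 200 mg/l). The ASAH+ Etoh-Dox group (5 mice) carried the transgene and received the same diet, so that ASAH1 was switched on in its hepatocytes. The series description gives 4 mice per group, while this group holds 5 samples, and all 5 were used. The ASAH+ Etoh group (4 mice) carried the transgene and received ethanol without Dox. No group was without ethanol, and ASAH- mice without Dox were not sequenced, so the effect of Dox and that of genotype cannot be told apart in a comparison of the ASAH- Etoh-Dox and ASAH+ Etoh groups. Each library came from a separate animal. The titles of the ASAH+ samples state the opposite Dox treatment to their descriptions and induction labels; the descriptions and induction labels were used.

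Liver secretes triglyceride in very low density lipoprotein (VLDL), a particle built around a single apolipoprotein B molecule that the transfer protein encoded by Mttp loads with lipid in the endoplasmic reticulum. Smaller apolipoproteins on the surface of VLDL govern its fate in blood: apoC-II activates lipoprotein lipase, apoC-III and apoA-V act on lipolysis in opposite directions, and apoE binds the receptors that return remnants to the liver. ApoA-I and apoA-II are the main proteins of high density lipoprotein (HDL), which carries cholesterol back to the liver.

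The total count per mouse lay between 17819486 and 35358711, with a median of 24454043, and the 10 genes together took between 2.79% and 3.33% of it. Levels are given below as normalised read counts (CPM, relative to the total count on tested genes, scaled by the trimmed mean of M values). The groups were checked against Asah1, the gene of the transgene's product. Its level was 48.7, 40.04, 53.7 and 55.0 CPM in ASAH- Etoh-Dox replicates 1 to 4 and 46.8, 44.2, 46.8 and 48.3 CPM in ASAH+ Etoh replicates 1 to 4. In ASAH+ Etoh-Dox replicates 1 to 5 it was 10314, 9668, 15134, 12725 and 15935 CPM, so induced and not induced libraries were as labelled. Asah1 does not tell ASAH- Etoh-Dox from ASAH+ Etoh libraries, and those labels were taken as given.

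The libraries had the markers of liver. All 10 hepatocyte markers were detected, with a summed level between 114246 and 177045 CPM, and Alb, which encodes albumin, was the most abundant of them. Apolipoprotein genes are also active in the gut, and of 6 enterocyte symbols Cdx1, Cdx2 and Alpi were at 0 in all 13 mice, Vil1 had at most 8 counts, Fabp2, which liver also makes, lay between 59.2 and 116 CPM, and 1 symbol was not in the annotation. Of 4 adipocyte markers Lep was at 0 and the summed level was at most 0.108 CPM with Adipoq the most abundant, and of 5 pancreatic acinar markers Pnlip was at 0 and the summed level was at most 0.822 CPM with Cela2a the most abundant. These were bulk samples of whole liver, in which fewer cells of a type and less RNA per cell cannot be told apart.

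Many of the 10 genes are neighbours. Apoa1 (ENSMUSG00000032083, chr9:46228580-46230466), Apoc3 (ENSMUSG00000032081, chr9:46232933-46235636), Apoa4 (ENSMUSG00000032080, chr9:46240696-46243459) and Apoa5 (ENSMUSG00000032079, chr9:46268633-46271919) form a cluster in which Apoc3 lies on the minus strand and the other members on the plus strand of GRCm38. Apoe (ENSMUSG00000002985, chr7:19696109-19699188) and Apoc2 (ENSMUSG00000002992, chr7:19671579-19677941) lie together on the minus strand of chromosome 7. Apob (ENSMUSG00000020609, chr12:7977648-8016835, plus strand), Mttp (ENSMUSG00000028158, chr3:138089854-138144968, minus strand), Apoa2 (ENSMUSG00000005681, chr1:171225054-171226379, plus strand) and Apoh (ENSMUSG00000000049, chr11:108343354-108414396, plus strand) each stand alone. Their exons differ widely in summed length, from 537 bases in Apoa2 to 13934 bases in Apob.

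Because levels of different genes can be compared only per length, CPM was divided by exonic length in kilobases. This length joins the exons of all annotated transcripts of a gene, 11 transcripts and 2138 bases for Apoe, and can exceed that of the transcript expressed. The order below depends on it, and for Apoc2 also on reads shared with an overlapping gene, as described below. The median level over the 13 mice was highest for Apoa2 at 8316 CPM per kilobase, followed by Apoa1 and Apoe, both at 4656 CPM per kilobase. Apoa1 stood above Apoe in 5 of 13 mice, so these neighbours do not differ beyond their spread. Apoh at 1269 and Apoc3 at 1021 CPM per kilobase overlapped in range, although Apoh was the higher in all 13 mice. The assembly gene Apob at 423 and the lipolysis gene Apoa5 at 417 CPM per kilobase overlapped as well, with Apob higher in 10 of 13 mice. Apoa5 also overlapped Apoa4 below it, and was the higher in 12 of 13 mice. Apoa4 at 169 and Apoc2 at 129.7 CPM per kilobase also overlapped, with Apoa4 higher in 9 of 13 mice. Mttp, which encodes an enzyme-like transfer protein and no part of the particle, was lowest at 64.1 CPM per kilobase and lay below the other 9 genes in every mouse.

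**Figure D1:**
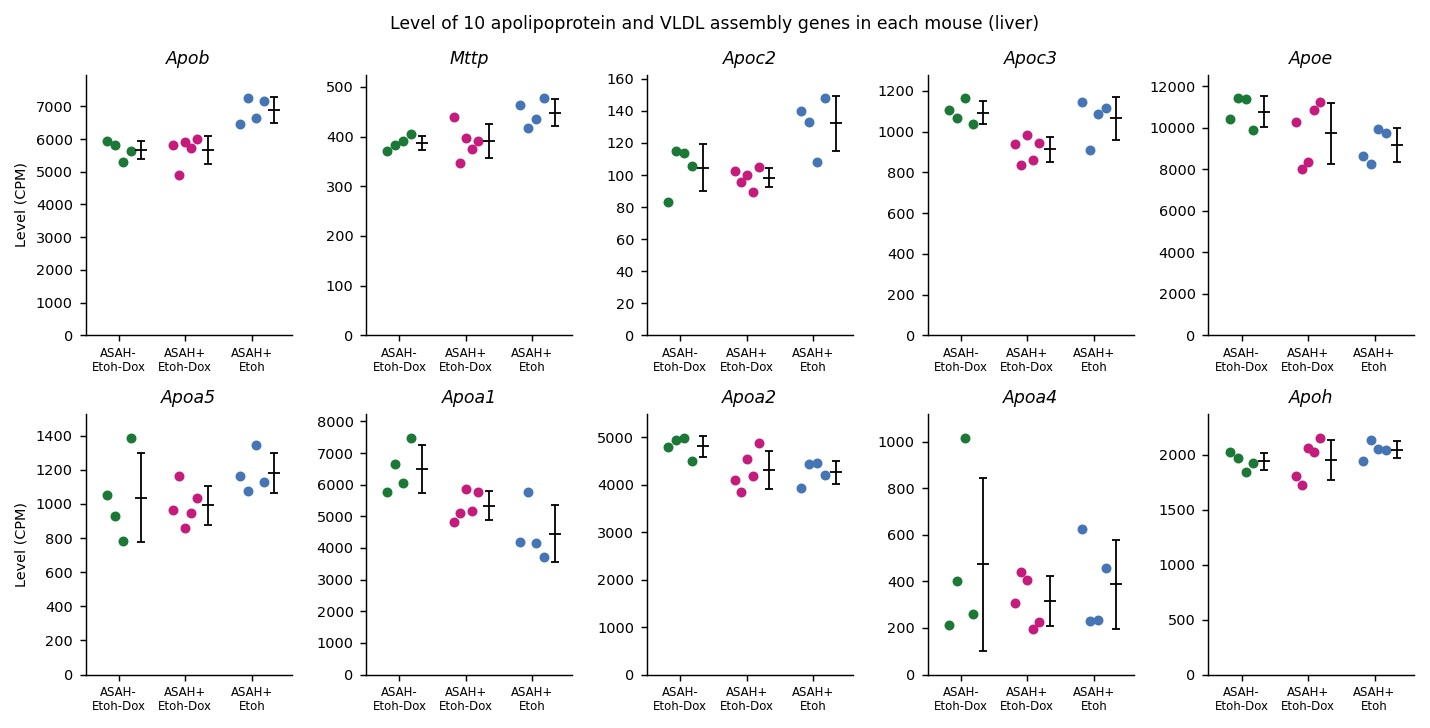
Level of each of the 10 genes in each of the 13 mice, in CPM on an axis that starts at 0. Each point is a mouse, coloured by group, and the horizontal mark with its bar is the group mean with its SD; for Apob the 4 ASAH+ Etoh mice sit between 6447 and 7250.2 CPM, above all 9 mice on Etoh-Dox.

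Apob encodes the protein that each VLDL particle is built on. Its level was 5931, 5809, 5295 and 5631 CPM in ASAH- Etoh-Dox replicates 1 to 4, 5809.8, 4909, 5896, 5730.1 and 6001 CPM in ASAH+ Etoh-Dox replicates 1 to 5, and 6447, 7250.2, 6638 and 7178 CPM in ASAH+ Etoh replicates 1 to 4. All 9 Etoh-Dox mice were below all 4 Etoh mice, while the ASAH- and ASAH+ mice on Etoh-Dox overlapped fully. Group means were 5666 ± 277 CPM (SD, n = 4), 5669 ± 437 CPM (SD, n = 5) and 6878 ± 397 CPM (SD, n = 4) in the same order. Apob was also among the steadiest genes: its SD within groups was 0.095 on the log2 scale, larger than that of only 12.9% of 5742 genes with a mean log2 CPM above 4, whose median was 0.16.

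Mttp encodes the subunit that moves triglyceride onto nascent apolipoprotein B. Its level was 370.4, 384, 391 and 404 CPM in ASAH- Etoh-Dox replicates 1 to 4, 440.1, 347, 398, 376 and 392 CPM in ASAH+ Etoh-Dox replicates 1 to 5, and 463, 417, 436 and 477 CPM in ASAH+ Etoh replicates 1 to 4. The ASAH- Etoh-Dox mice lay wholly below the Etoh mice, and among ASAH+ Etoh-Dox mice replicate 1 alone reached into their range.

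Apoc2 encodes the activator of lipoprotein lipase. Its level was 83.4, 115, 114 and 105 CPM in ASAH- Etoh-Dox replicates 1 to 4, 102, 95.4, 100.1, 89.3 and 105 CPM in ASAH+ Etoh-Dox replicates 1 to 5, and 139.7, 133, 108 and 148 CPM in ASAH+ Etoh replicates 1 to 4. All 5 ASAH+ Etoh-Dox mice were below all 4 Etoh mice, and the ASAH- mice overlapped the Etoh group through its replicate 3. The count of Apoc2 is uncertain, because 646 of its 813 exonic bases are shared on the same strand with the gene Gm44805, which took between 563 and 1079 counts per mouse, up to 55.4% of the Apoc2 count of the same mouse, and reads that fit both were divided between them. Overlaps of Apoa4, Apoa5, Apoh and Mttp with other genes are on the opposite strand, in a stranded library, and reached at most 1.31% of the member's count.

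Promoters are printed for the 4 genes whose groups separate furthest from the ASAH+ Etoh mice, Apob, Mttp, Apoc2 and Apoa1, so that a reader can see how unlike their start regions are. The sequences are from RefSeq on GRCm38.p6 and run from 250 bases before to 50 bases after the start, 5′ to 3′ on the gene's strand. Of the 10 genes 9 had an entry, 13 entries in all, and Apoc3 had none. Capitals mark the letters TATAAA of a TATA box, the core sequence AGGTCA of nuclear receptor sites and the letters GTTAAT from the sequence that HNF1 factors recognise, each searched on both strands. These letters are in 13.6%, 16.3% and 7.10% of 32851 promoters of this length. Apob (chr12:7977427-7977726, plus strand) holds TATAAA at position -60 from the start and has 56.7% G and C, against a median of 52.7% over all promoters. Apoc2 (chr7:19677892-19678191, minus strand, 52.7% G and C) holds AGGTCA at 2 places and GTTAAT at 1. Mttp (chr3:138143369-138143668, minus strand, 62.0% G and C) and Apoa1 (chr9:46228380-46228679, plus strand, 59.3% G and C) hold none of the 3 in this window. Over the members' entries TATAAA was found for 4 genes, AGGTCA for 3 and GTTAAT for 2. Some of these entries lie away from the 5′ end that GENCODE gives the gene. The AGGTCA of Apoh is in an entry 51943 bases away and that of Apoa2 in one 3490 bases away. The TATAAA and GTTAAT of Apoe are in entries 567 and 790 bases away. These counts are per gene, some with several entries, while the percentages above are per promoter. A match is a description of the letters and neither a bound site nor a cause, and no match says only that these letters are not in this window. The start used for Mttp lies 1550 bases inside the 5′ end that GENCODE gives the gene.
Apob: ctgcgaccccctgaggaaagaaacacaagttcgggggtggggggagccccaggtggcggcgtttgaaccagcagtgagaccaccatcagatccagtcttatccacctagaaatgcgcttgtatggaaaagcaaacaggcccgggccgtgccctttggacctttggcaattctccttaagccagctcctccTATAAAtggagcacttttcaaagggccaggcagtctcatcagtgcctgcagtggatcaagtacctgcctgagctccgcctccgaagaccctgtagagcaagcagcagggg
Mttp: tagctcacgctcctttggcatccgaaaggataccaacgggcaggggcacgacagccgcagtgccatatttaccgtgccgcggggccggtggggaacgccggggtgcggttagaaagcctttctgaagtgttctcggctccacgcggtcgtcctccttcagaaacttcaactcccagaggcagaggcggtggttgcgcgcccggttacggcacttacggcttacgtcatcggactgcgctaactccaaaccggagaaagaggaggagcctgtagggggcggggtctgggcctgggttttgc
Apoc2: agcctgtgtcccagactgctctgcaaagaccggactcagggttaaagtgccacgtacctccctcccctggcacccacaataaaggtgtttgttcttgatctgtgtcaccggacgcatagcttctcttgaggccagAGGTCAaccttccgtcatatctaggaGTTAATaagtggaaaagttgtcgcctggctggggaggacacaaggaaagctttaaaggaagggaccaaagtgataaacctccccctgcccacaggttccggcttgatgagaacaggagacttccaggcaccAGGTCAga
Apoa1: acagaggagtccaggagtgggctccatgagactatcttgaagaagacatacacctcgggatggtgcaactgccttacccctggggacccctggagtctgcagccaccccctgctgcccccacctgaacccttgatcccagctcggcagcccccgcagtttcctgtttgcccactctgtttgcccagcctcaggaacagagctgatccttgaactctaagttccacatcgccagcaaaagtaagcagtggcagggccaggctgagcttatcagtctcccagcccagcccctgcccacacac

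Apoc3 encodes the brake on lipolysis and on remnant uptake. Its level was 1109, 1067, 1164 and 1035 CPM in ASAH- Etoh-Dox replicates 1 to 4, 941, 838, 982, 859 and 946 CPM in ASAH+ Etoh-Dox replicates 1 to 5, and 1146, 912, 1089 and 1116 CPM in ASAH+ Etoh replicates 1 to 4. All 5 ASAH+ Etoh-Dox mice were below all 4 ASAH- Etoh-Dox mice, and they overlapped the Etoh mice through Etoh replicate 2. Apoa5, whose protein promotes lipolysis, ranged from 782 to 1389 CPM within the ASAH- Etoh-Dox group alone, and its 3 groups overlapped. Apoe, the remnant ligand, ranged from 7995 to 11412 CPM over the 13 mice, and its groups overlapped too.

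Apoa1 encodes the main protein of HDL. Its level was 5779, 6659.5, 6048 and 7490.2 CPM in ASAH- Etoh-Dox replicates 1 to 4, 4822, 5116, 5859, 5153 and 5755 CPM in ASAH+ Etoh-Dox replicates 1 to 5, and 4203, 5769, 4142 and 3703 CPM in ASAH+ Etoh replicates 1 to 4. The ASAH- Etoh-Dox mice were all above the Etoh mice, narrowly so for Etoh replicate 2, and the ASAH+ Etoh-Dox mice overlapped both groups, with a mean between theirs. Apoa2, the other main HDL protein, was between 4506 and 4997 CPM in ASAH- Etoh-Dox mice, 3843 and 4884 CPM in ASAH+ Etoh-Dox mice, and 3939 and 4466 CPM in ASAH+ Etoh mice. The ASAH- Etoh-Dox mice were again all above the Etoh mice, while the ASAH+ Etoh-Dox mice overlapped both groups.

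Apoa4, made in gut and liver and carried on newly secreted particles, varied most among the 10. Its level was 214, 401, 1018 and 261 CPM in ASAH- Etoh-Dox replicates 1 to 4, 306, 441, 407, 197 and 226 CPM in ASAH+ Etoh-Dox replicates 1 to 5, and 625, 228, 235 and 459 CPM in ASAH+ Etoh replicates 1 to 4. Each group held both low and high mice, and the highest mouse had 5.18 times the level of the lowest. Its SD within groups was 0.75 on the log2 scale, above that of 98.6% of the 5742 genes. Apoh, a plasma protein that binds phospholipid, had the smallest ratio of highest to lowest mouse, 1.25, and ranged from 1727 to 2157 CPM with all groups overlapping.

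The genetic control compares the ASAH+ Etoh-Dox and ASAH- Etoh-Dox groups, both on Dox, and so bears on the induced transgene. Apoc3 and Apoa1 were the genes with the clearest differences, both lower with the transgene, and the VLDL assembly genes did not separate. For Apoc3 the log2 fold change with its standard error (SE) was -0.26 ± 0.084, all 20 pairs of mice were lower, and the exact permutation test gave p = 0.00794, the smallest that 5 against 4 mice can give. For Apoa1 it was -0.28 ± 0.12 (SE), 19 of 20 pairs were lower, and the exact permutation test gave p = 0.0317. Neither passed correction: the Benjamini-Hochberg adjusted p over all 14317 genes was 0.9997 for both in the quasi-likelihood test of edgeR. The 95% interval of the log2 fold change was -0.17 to 0.17 for Apob and -0.16 to 0.18 for Mttp.

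Under that test at an adjusted p under 0.1, 0 of the 10 genes were called in the genetic comparison, against 0.0140% of all genes tested, namely Asah1 and Sod1. The log2 fold change of Sod1 was 0.69 ± 0.092 (SE). At an unadjusted p under 0.05 edgeR gave 2 of the 10, both lower, against 2.86% of all genes. DESeq2 called 0 of the 10, against 0.0756% of the genes it adjusted over, and limma-voom called 0. The mice of the groups did not overlap for 1 of the 10, Apoc3, against 0.887% of all genes. The median log2 fold change was -0.12 over the 10 genes, 7 of them negative, and -0.0023 over all genes. Over the 10 hepatocyte markers it was -0.17, so a shift of this size is not particular to the apolipoprotein genes.

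The log2 fold change of Apoa4 in the genetic comparison, -0.59 ± 0.47 (SE), rested on ASAH- Etoh-Dox replicate 3, the mouse at 1018 CPM. Without that mouse it was 0.11. For Apoa2 the log2 fold change was -0.16 and for Apoe -0.15, with 17 and 15 of 20 pairs lower, and with a mouse left out the value for Apoe lay between -0.19 and -0.083. Those of Apoa5 at -0.064, Apoc2 at -0.085 and Apoh at 0.011 were within 1 standard error of 0. With a mouse left out that of Apoc2 lay between -0.17 and -0.035, and with the counts of Gm44805 added it was -0.15. Without ASAH- Etoh-Dox replicate 4 the value for Apoa5 was 0.11.

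The dietary control compares the ASAH+ Etoh-Dox and ASAH+ Etoh groups, which share the genotype and differ in Dox and in the induced transgene together. The genes of the 10 with an unadjusted p under 0.05 in edgeR were Apob, Mttp, Apoc2 and Apoc3. Their estimates lay between -12.9% (Mttp) and -25.6% (Apoc2), and edgeR called none of them at an adjusted p under 0.1. Apoa5 (-15.8%) and Apoa4 (-18.4%) lay in the same range. For Apob the log2 fold change was -0.28 ± 0.078 (SE), and for Apoc2 it was -0.43 ± 0.11 (SE). Both were lower in all 20 pairs of mice, with p = 0.00794 by the exact permutation test, the smallest that 5 against 4 mice can give. Adjusted p was 0.505 for Apob and 0.473 for Apoc2 (quasi-likelihood test of edgeR, Benjamini-Hochberg), so edgeR called neither. For Mttp the log2 fold change was -0.20 ± 0.079 (SE), with 18 of 20 pairs lower and p = 0.0397 by the exact permutation test. For Apoc3 it was -0.22 ± 0.084 (SE), with 17 of 20 pairs lower and p = 0.0635 by the exact permutation test; between the groups without induced ASAH1 its value was 0.038, with 8 of 16 pairs each way.

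In the dietary comparison edgeR called 0 of the 10 genes at an adjusted p under 0.1, against 0.0140% of all genes, again Asah1 and Sod1. At an unadjusted p under 0.05 edgeR gave 4 of the 10, Apob, Apoc2, Apoc3 and Mttp, against 7.29% of all genes. DESeq2 called 2 of the 10, Apob with an adjusted p of 0.0189 and Apoc2 with an adjusted p of 0.0215, against 2.97% of the 3198 genes that its own filter let it adjust over, and limma-voom called 0. The mice did not overlap for 2 of the 10, the same Apob and Apoc2, against 2.58% of all genes. The median log2 fold change was -0.21 over the 10 genes, 7 of them negative, -0.095 over the 10 hepatocyte markers and 0.013 over all genes. Among the rest, Apoa1 had a log2 fold change of 0.26 ± 0.12 (SE) and was higher in 16 of 20 pairs, with values from 0.17 to 0.41 when a mouse was left out, and Apoa5 had one of -0.25 ± 0.14 (SE) and was lower in 18 of 20 pairs, with p = 0.0397 by the exact permutation test, and its value was -0.084 with the length index described below as a covariate.

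The ASAH- Etoh-Dox and ASAH+ Etoh groups both lack induced ASAH1, and differ in Dox and in the presence of the silent transgene. The mice of these groups did not overlap for Apoa1, Apoa2, Apob and Mttp, of which edgeR called none and DESeq2 called Apoa1 and Apob. For Apoa1 the log2 fold change was 0.54 ± 0.13 (SE), the largest of the 10, and the exact permutation test gave p = 0.0286, the smallest that 4 against 4 mice can give. For Apoa2 it was 0.18 ± 0.087 (SE), for Apob -0.28 ± 0.083 (SE), and for Mttp -0.21 ± 0.084 (SE). In each of these all 16 pairs of mice went the same way, with the same p of 0.0286 in the exact permutation test. For Apoc2 the log2 fold change was -0.34 ± 0.11 (SE) and 14 of 16 pairs were lower, and for Apoe it was 0.23 ± 0.12 (SE) and 15 of 16 pairs were higher. Adjusted p was 0.389 for Apoa1 and for Apob (quasi-likelihood test of edgeR, Benjamini-Hochberg). With the length index described below as a covariate, the log2 fold change of Apoe was -0.0011 and that of Apoa2 was 0.059.

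In this comparison without induced ASAH1, edgeR called 0 of the 10 at an adjusted p under 0.1, against 0.0140% of all genes, here mt-Co3 and mt-Co2. At an unadjusted p under 0.05 edgeR gave 4 of the 10, Apoa1 higher and Apob, Apoc2 and Mttp lower, against 9.19% of all genes. With the counts of Gm44805 added to those of Apoc2 it gave 3, against 1313 of all 14316 genes. The log2 fold change of Apoc2 was then -0.22. DESeq2 called 2 of the 10, Apoa1 with an adjusted p of 0.0492 and Apob with an adjusted p of 0.0542, against 1.49% of the genes it adjusted over, and limma-voom called 0. The mice did not overlap for 4 of the 10, against 5.50% of all genes. The median log2 fold change was -0.019 over the 10 genes, with 5 positive and 5 negative, 0.055 over the 10 hepatocyte markers and 0.016 over all genes. Within the chromosome 9 cluster the values differed, with Apoa1 at 0.54, Apoc3 at 0.038, Apoa4 at 0.29 and Apoa5 at -0.18. The value for Apoa4 was -0.41 without ASAH- Etoh-Dox replicate 3, that for Apoc3 was -0.031 without ASAH+ Etoh replicate 2, and that for Apoa5 lay between -0.36 and -0.070 with a mouse left out.

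Setting the mean of both Etoh-Dox groups against the ASAH+ Etoh group mixes Dox with the induction of ASAH1 in one of the groups and with the lack of the transgene in the other, and Asah1 itself has a log2 fold change of 4.09 in it. The mean of both Etoh-Dox groups was lower than the Etoh mean for Apob, Apoc2 and Mttp and higher for Apoa1. For Apob the log2 fold change was -0.28 ± 0.070 (SE), all 36 pairs were lower, and the exact permutation test gave p = 0.0014, the smallest that 9 against 4 mice can give. For Apoc2 it was -0.38 ± 0.096 (SE), and for Mttp -0.20 ± 0.071 (SE), each with 34 of 36 pairs lower and p = 0.0042 by the exact permutation test. For Apoa1 it was 0.40 ± 0.11 (SE), with 32 of 36 pairs higher and p = 0.00979 by the exact permutation test. Adjusted p was 0.306 for Apob, Apoc2 and Apoa1 and 0.370 for Mttp (quasi-likelihood test of edgeR, Benjamini-Hochberg).

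For both Etoh-Dox groups together edgeR called 0 of the 10 at an adjusted p under 0.1, against 0.0419% of all genes: Asah1, Sod1, mt-Co3, Id2, mt-Co2 and Kmt2c. At an unadjusted p under 0.05 edgeR gave 4 of the 10, Apob, Apoc2, Mttp and Apoa1, against 10.1% of all genes. DESeq2 called the same 4, with adjusted p of 0.00892 for Apob, 0.0308 for Apoc2, 0.0959 for Mttp and 0.0860 for Apoa1, against 1.93% of the genes it adjusted over, and limma-voom called 0. The mice did not overlap for 1 of the 10, Apob, against 0.950% of all genes. The median log2 fold change was -0.082 over the 10 genes, 7 of them negative, -0.026 over the 10 hepatocyte markers and 0.014 over all genes. This comparison and those of each Etoh-Dox group with the Etoh group share the same 4 Etoh mice, and the genetic and dietary comparisons share the 5 ASAH+ Etoh-Dox mice, so like values in them are not separate observations.

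**Figure D2:**
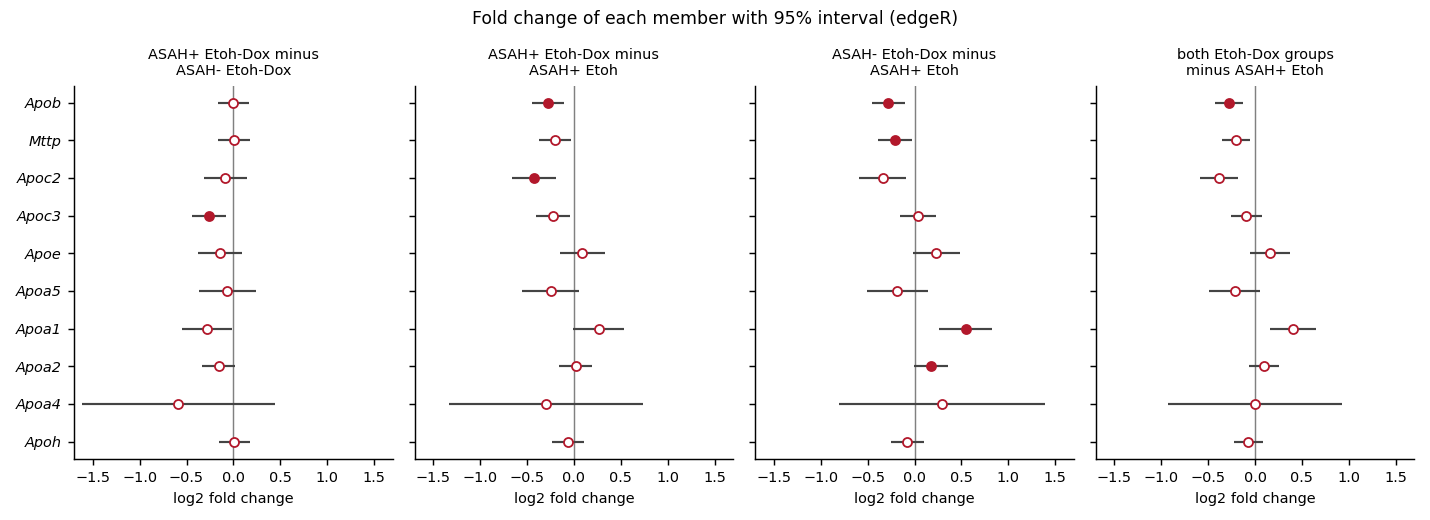
Log2 fold change of each of the 10 genes with its 95% interval from edgeR, in 4 panels for the 4 comparisons; filled points mark genes for which the mice of the groups do not overlap. Apob lies at -0.28 in each of the 3 comparisons with the ASAH+ Etoh group and near 0 between the groups on Etoh-Dox.

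Values of other genes moved with the groups. For the counts of markers below, the shares of all genes with an unadjusted p under 0.05 in edgeR were 2.86%, 7.29%, 9.19% and 10.1%, in the order of the comparisons above. Red cell markers, all 5 detected and Hbb-bs the most abundant, were higher on Etoh-Dox: their summed level averaged 728 CPM in the ASAH- Etoh-Dox group, 560.4 CPM in the ASAH+ Etoh-Dox group and 166 CPM in the Etoh group, and all 5 had an unadjusted p under 0.05 in each comparison with the Etoh group. The sum was 231, 752, 1714 and 215 CPM in ASAH- Etoh-Dox replicates 1 to 4, 689, 241, 871, 355 and 646 CPM in ASAH+ Etoh-Dox replicates 1 to 5, and 135, 159.8, 175 and 192 CPM in ASAH+ Etoh replicates 1 to 4. Sinusoidal endothelial markers, all 7 detected with Fcgr2b the most abundant of them at 26.2 to 56.8 CPM, had sums of 134 to 186 CPM in ASAH+ Etoh-Dox mice, 154 to 285 CPM in ASAH- Etoh-Dox mice and 175 to 248 CPM in Etoh mice. Of these 5 of 7 were lower against the ASAH- Etoh-Dox mice and 6 of 7 against the Etoh mice at an unadjusted p under 0.05, with mean sums of 161, 206 and 218 CPM in the ASAH+ Etoh-Dox, ASAH- Etoh-Dox and Etoh groups. The sum of 285 CPM was that of ASAH- Etoh-Dox replicate 3, and the other 3 mice of its group were at 154 to 203 CPM.

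Markers of Kupffer cells and macrophages, all 8 detected with Cd5l the most abundant, had mean sums of 594 CPM in the ASAH- Etoh-Dox group, 479 CPM in the ASAH+ Etoh-Dox group and 389 CPM in the Etoh group, and 5 were higher in ASAH- Etoh-Dox than in Etoh mice at an unadjusted p under 0.05. In ASAH- Etoh-Dox replicate 3 the sum was 919 CPM, and in the other 3 mice of that group it was 443 to 564 CPM, against 344 to 434 CPM in the Etoh mice. Stellate cell markers, all 8 detected with Dcn the most abundant, had mean sums of 439, 375 and 371 CPM in the same order, with 3 lower in the genetic comparison and 3 higher in ASAH- Etoh-Dox than in Etoh mice at the same level. Cholangiocyte markers, 6 of 6 detected with Spp1 the most abundant, summed to 31.8 to 79.5 CPM, with 0 past an unadjusted p of 0.05 in edgeR in the 4 comparisons. Fabp2 was higher at that level in the dietary comparison (log2 fold change 0.43) and for both Etoh-Dox groups (0.34). Hepatocyte markers summed on average to 158568, 139287 and 147636 CPM, with 1 lower in the genetic and 2 lower in the dietary comparison at an unadjusted p under 0.05. Liver hepatocytes are the main source of the 10 genes, and the part of cell composition in their differences was not tested.

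Fold changes also moved with the length of genes. Over 5598 coding genes with a mean log2 CPM above 4, the 10 left out, the median log2 fold change between ASAH- Etoh-Dox and ASAH+ Etoh mice went from 0.074 in the 560 shortest genes to -0.14 in the 560 longest, and across genes, which are not independent replicates, Spearman's rho with length was -0.38. It went from 0.041 to -0.076 in the dietary comparison, from -0.047 to 0.060 in the genetic comparison, and from 0.057 to -0.11 for both Etoh-Dox groups against Etoh. An index of this, the median centred log2 CPM of the 560 longest genes minus that of the 560 shortest, was -0.084, -0.26, -0.18 and 0.084 in ASAH- Etoh-Dox replicates 1 to 4, -0.013, 0.073, -0.030, 0.0023 and -0.063 in ASAH+ Etoh-Dox replicates 1 to 5, and 0.098, 0.24, 0.060 and 0.087 in ASAH+ Etoh replicates 1 to 4. The index was built after seeing the data.

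With the length index as a covariate, the log2 fold change of Apob was -0.29, -0.30 and -0.30 in the dietary comparison, in that without induced ASAH1, and in that of both Etoh-Dox groups. That of Apoc2 was -0.48, -0.43 and -0.45, that of Mttp was -0.22, -0.25 and -0.24, and that of Apoa1 was 0.39, 0.76 and 0.57. The sizes of these 12 values were no smaller than without the index. Their adjusted p between ASAH- Etoh-Dox and ASAH+ Etoh mice was higher with it, 0.656 for Apob and 0.496 for Apoa1 (quasi-likelihood test of edgeR, Benjamini-Hochberg). With the index edgeR gave 2, 5, 3 and 5 of the 10 at an unadjusted p under 0.05, in the order of the comparisons above, where it gave 2, 4, 4 and 4 without it. Over all 14317 genes it gave 528, 1043, 1020 and 1124 with the index and 409, 1044, 1316 and 1445 without it. Further values moved with the index, some with a change of sign. Between ASAH- Etoh-Dox and ASAH+ Etoh mice Apoe went from 0.23 to -0.0011, Apoa2 from 0.18 to 0.059, Apoa5 from -0.18 to 0.10, Apoa4 from 0.29 to -0.48 and Apoc3 from 0.038 to -0.12. In the genetic comparison Apoc3 went from -0.26 to -0.19, Apoa1 from -0.28 to -0.37, Apoa2 from -0.16 to -0.11, Apoe from -0.15 to -0.041, Apoa4 from -0.59 to -0.15, Apoa5 from -0.064 to -0.19 and Apoc2 from -0.085 to -0.045. In the dietary comparison Apoa4 went from -0.29 to -0.63, Apoe from 0.089 to -0.042, Apoa2 from 0.017 to -0.049 and Apoa5 from -0.25 to -0.084. For both Etoh-Dox groups Apoa4 went from -0.00098 to -0.56, Apoc3 from -0.092 to -0.21, Apoe from 0.16 to -0.021, Apoa5 from -0.22 to 0.0096 and Apoa2 from 0.096 to 0.0049.

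**Figure D3:**
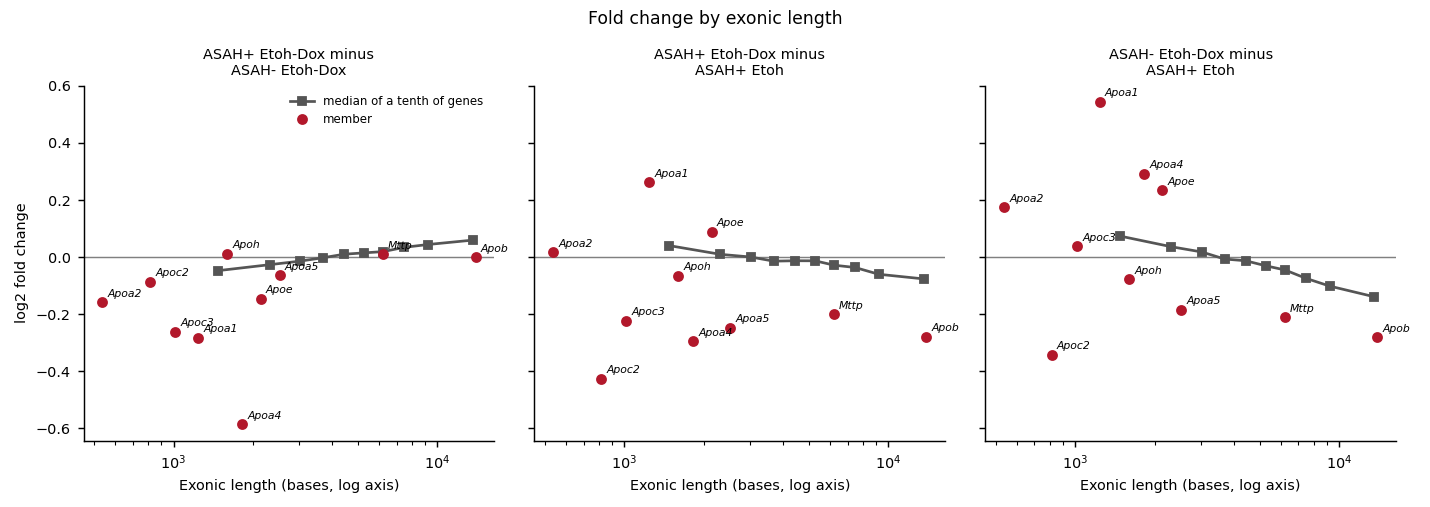
Log2 fold change against exonic length in bases on a log axis, in 3 panels for 3 comparisons. Grey squares joined by a line are medians of 10 bins of 5598 genes by length and red points are the 10 genes; between ASAH- Etoh-Dox and ASAH+ Etoh mice the squares go from 0.074 to -0.14, and Apob lies at -0.28.

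The 10 genes did not vary as a block between mice of the same group. Over 13 mice with group means removed, the 45 pairs among them had a median Pearson r of 0.055 and a range from -0.57 to 0.80. Apob and Apoh had the highest, r = 0.80 with p = 0.00069 in a permutation test of 100000 resamples and an adjusted p of 0.0310 over the 45 pairs, and Spearman's rho was 0.77 with p = 0.00283 and an adjusted p of 0.127. Here and below, the 2 mice left out together were those farthest from the median of the first gene, before group means were removed. Such mice can be far through the level of their whole group. For Apob they were ASAH+ Etoh replicates 2 and 4, without which r was 0.82. It was 0.62 without ASAH+ Etoh-Dox replicate 2, the mouse lowest in both genes, with an adjusted p of 0.256 by permutation, and its adjusted p was also above 0.1 without ASAH+ Etoh-Dox replicate 5 (0.1003) and without ASAH+ Etoh replicate 1 (0.105). The other pairs had an adjusted p above 0.1.

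Apoa2 and Apoh had r = 0.77 and rho = 0.75, with permutation p of 0.0173 and 0.0219 and adjusted p of 0.316 and 0.366. Apoc3 and Mttp had r = 0.61 and rho = 0.65, with permutation p of 0.0440 and 0.0377 and adjusted p of 0.428 and 0.366; without 2 mice r was 0.41. Of the 45 pairs 5 had an unadjusted p under 0.05 for r, and the other 2 were negative. Apoa4 and Apoh had the lowest value of all, r = -0.57 and rho = -0.53, with permutation p of 0.0210 and 0.0554 and adjusted p of 0.316 and 0.366; without 2 mice r was -0.48. Apoa4 and Apob had r = -0.55 and rho = -0.55, with permutation p of 0.0475 and 0.0747 and adjusted p of 0.428 and 0.407; without 2 mice r was -0.29. Neighbours in the genome had values of both signs. In the chromosome 9 cluster r was -0.57 for Apoa1 and Apoc3 (rho = -0.37, permutation p = 0.135 and 0.256, adjusted p = 0.505 and 0.722) and 0.48 for Apoa4 and Apoc3 (rho = 0.60, permutation p = 0.106 and 0.0466, adjusted p = 0.478 and 0.366; r = 0.24 without 2 mice). It was -0.31 for Apoa1 and Apoa4, 0.094 for Apoa1 and Apoa5, -0.50 for Apoa4 and Apoa5 and -0.31 for Apoa5 and Apoc3, and on chromosome 7 it was 0.060 for Apoc2 and Apoe. No batch is given in the labels, so no value within batches could be computed.

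**Figure D4:**
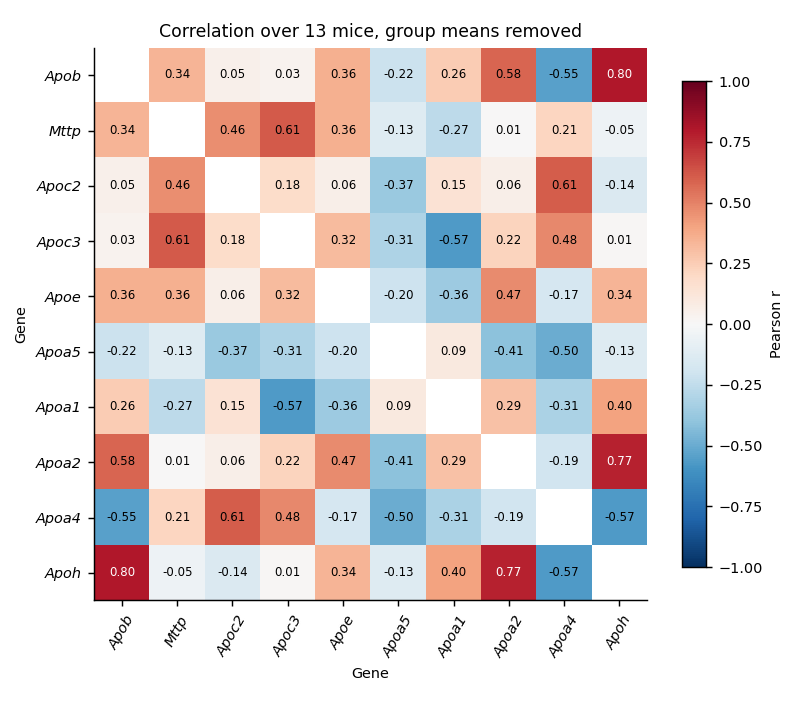
Pearson r between each pair of the 10 genes over 13 mice, on log2 CPM with group means removed, with the value written in each cell and colour for its sign and size. The highest value is 0.80 for Apob and Apoh, and positive and negative cells both occur, 27 and 18 of the 45 pairs.

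The relation of the 10 genes to the clock ratio Dbp to Arntl, to the transcription factor gene Creb3l3 and to the lipid droplet genes Plin2 and Cidec was computed the same way. Of these 40 relations 0 had an adjusted p under 0.1 by permutation and 2 an unadjusted p under 0.05 for r. They were Apoh with Cidec (r = -0.68, permutation p = 0.0148, adjusted p = 0.590; rho = -0.73, p = 0.0169, adjusted p = 0.495) and Apob with Cidec (r = -0.59, permutation p = 0.0308, adjusted p = 0.617; rho = -0.58, p = 0.0499, adjusted p = 0.665). Without the 2 mice farthest from the median r was -0.49 for Apoh and -0.61 for Apob. For Apob these were again ASAH+ Etoh replicates 2 and 4. Without ASAH+ Etoh-Dox replicate 2, the mouse lowest in both genes, r with Cidec was -0.46 for Apob and -0.58 for Apoh. Positive relations with Cidec were of like size. Apoc2 had r = 0.62 (permutation p = 0.0609, adjusted p = 0.671). Apoa4 had r = 0.57 (permutation p = 0.112, adjusted p = 0.671) and rho = 0.64 (permutation p = 0.0247, adjusted p = 0.495). With the length index Apoe had r = -0.59 (permutation p = 0.0023, adjusted p = 0.0230 over 10 relations; rho = -0.52, p = 0.0251, adjusted p = 0.166; r = -0.45 without 2 mice) and Apob had r = -0.099 (permutation p = 0.729, adjusted p = 0.729; rho = 0.060, p = 0.857, adjusted p = 0.857; r = -0.30 without 2 mice). With the same index Apoc3 had r = -0.61 (permutation p = 0.0190, adjusted p = 0.0952; rho = -0.57, p = 0.0429, adjusted p = 0.166; r = -0.57 without 2 mice).

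The genes most alike to Apob in log2 CPM over the 13 mice, among 5741 genes with a mean log2 CPM above 4, were Fn1, Huwe1, Abcb4, Znrf3 and Kmt2c, with Pearson r of 0.93, 0.89, 0.87, 0.85 and 0.85. With group means removed these were 0.82, 0.81, 0.61, 0.59 and 0.59. Fn1 encodes plasma fibronectin and Abcb4 the phospholipid exporter of bile. Those most alike to Apoa4 were 2010003K11Rik, Ap3d1, Ppt1, Zfp655 and Plin3, with r of 0.90, 0.83, 0.80, 0.78 and 0.78. For Apoa4 these rest in part on its extremes, since without 2 mice r was 0.87 for 2010003K11Rik and 0.54 to 0.62 for the others.

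Other genes of the pathway were read from 7 lists with 105 genes, of which 104 were tested and Apod was not. In the 4 comparisons edgeR called 0 of them at an adjusted p under 0.1. At an unadjusted p under 0.05 it gave 2 higher and 2 lower (3.85% of 104) in the genetic comparison, 5 higher and 1 lower (5.77%) in the dietary comparison, 7 higher and 6 lower (12.5%) between ASAH- Etoh-Dox and ASAH+ Etoh mice, and 6 higher and 5 lower (10.6%) for both Etoh-Dox groups against Etoh. The shares over all genes, given above as 2.86%, 7.29%, 9.19% and 10.1%, are close to these. DESeq2 called 0, 0, 1 and 1 in the same order. In the dietary comparison it adjusted over 3198 genes only and gave no adjusted p for Apobec1, Soat2 and Lmf1, so it could not call them.

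Of 3 genes for editing of Apob messenger RNA, which makes the short apoB48 form, Apobec1, the deaminase, averaged 12.5 ± 0.448 CPM (SD, n = 5) in ASAH+ Etoh-Dox, 12.7 ± 0.676 CPM (SD, n = 4) in ASAH- Etoh-Dox and 9.97 ± 1.702 CPM (SD, n = 4) in Etoh mice. Its log2 fold change for both Etoh-Dox groups against Etoh was 0.34 ± 0.095 (SE), higher in 33 of 36 pairs, with p = 0.00559 by the exact permutation test and an adjusted p of 0.0860 in DESeq2 with Benjamini-Hochberg adjustment. Its partner Rbm47 had a log2 fold change of -0.34 ± 0.13 (SE) between ASAH- Etoh-Dox and Etoh mice, lower in 16 of 16 pairs. In the genetic comparison 0 of the 3 had an unadjusted p under 0.05 in edgeR, and DESeq2 called 0.

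Of 20 genes of VLDL lipidation 2 (10%, against 7.29% of all genes) were higher at an unadjusted p under 0.05 in the dietary comparison. In the genetic comparison 0 were, against 2.86% of all genes. The 2 were Pla2g12b, needed for full loading of VLDL, with a log2 fold change of 0.34 ± 0.12 (SE), and Soat2, which makes cholesteryl ester, with 0.48 ± 0.17 (SE). Both edgeR and DESeq2 called 0, but DESeq2 gave Soat2 no adjusted p in the dietary comparison. Pla2g12b was also the 1 gene past that unadjusted level between ASAH- Etoh-Dox and ASAH+ Etoh mice, with 0.31 (5% of the 20, against 9.19% of all genes). Of 23 genes of VLDL export from the endoplasmic reticulum 1 (4.35%, against 7.29% of all genes) was lower at that level in the dietary comparison. It was Sec23a, a subunit of the COPII coat, with -0.29 ± 0.10 (SE), and its value was -0.23 between ASAH- Etoh-Dox and ASAH+ Etoh mice.

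Of 8 other apolipoprotein genes 7 were tested. Apom, an HDL apolipoprotein, had a log2 fold change of -0.26 ± 0.095 (SE) in the genetic comparison, lower in 18 of 20 pairs. Between ASAH- Etoh-Dox and ASAH+ Etoh mice Apoc4, the neighbour of Apoc2, had 0.27 ± 0.099 (SE) and was higher in 16 of 16 pairs, while Saa4 had -0.34 ± 0.12 (SE) and was lower in 16 of 16. Of 10 genes of HDL formation and remodelling Pltp, the phospholipid transfer protein, had 0.44 ± 0.18 (SE) in the dietary comparison, and Pctp had 0.70 and Pon3 -0.22 between ASAH- Etoh-Dox and ASAH+ Etoh mice.

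Of 15 genes of lipolysis and uptake 1 (6.67%, against 2.86% of all genes) had an unadjusted p under 0.05 in the genetic comparison. It was Gpihbp1, the endothelial anchor of lipoprotein lipase, with a log2 fold change of -0.46 ± 0.17 (SE). Its level was 12.4, 10.4, 17.8 and 12.1 CPM in ASAH- Etoh-Dox replicates 1 to 4, so the value rests in part on replicate 3, which also had the highest sum of endothelial markers. Gpihbp1 is a gene of endothelial cells. In the dietary comparison Lmf1, a maturation factor of lipases, had 0.25 ± 0.11 (SE). Of 26 transcription factor genes 2 (7.69%, against 2.86% of all genes) had an unadjusted p under 0.05 in the genetic comparison, Mlxipl with 0.36 ± 0.15 (SE) and Nr5a2 with 0.15 ± 0.070 (SE). For both the adjusted p was 0.9997 in edgeR and 0.9998 in DESeq2, and the exact permutation test gave 0.0714 for Mlxipl and 0.0556 for Nr5a2. Between ASAH- Etoh-Dox and ASAH+ Etoh mice 3 were higher at that unadjusted level, with Srebf2 at 0.26 and Creb3l3 at 0.23 the largest, and 2 were lower, Nr5a2 at -0.24 (adjusted p of 0.0603 in DESeq2) and Rora at -0.22. Together these were 19.2% of the 26, against 9.19% of all genes.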

How the data were processed

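Liver RNA of 13 mice was measured by RNA sequencing. The authors prepared stranded messenger RNA libraries, sequenced single reads of 100 bases, assigned them with salmon to the GENCODE M19 transcripts of GRCm38.p6, and used tximport to sum transcripts within genes. Expected counts per gene were deposited, rounded by the authors to whole numbers and neither scaled nor filtered. Reads that fit several genes were divided by estimated abundance, so counts of overlapping genes are uncertain. Salmon and the build are also named in the submitters' processing notes, without a version.

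Symbols and positions were read from the M21 release of GENCODE (GRCm38), which holds 53355 of the 53392 identifiers. Groups came from descriptions and induction labels. In R 4.3.3, edgeR 4.0.16 kept genes by its own filter with the 3 groups, normalized by TMM, and fitted 3 group means by quasi-likelihood with robust dispersion over all 13 mice. Adjustment was by Benjamini-Hochberg across the genes tested, with a threshold of 0.1. Each of the 10 genes also had a two-sided exact permutation test of the difference in mean log2 CPM (prior count 2) between mice. Correlations used log2 CPM minus the group mean and 100000 two-sided permutations within groups. Both kinds of script were tested on simulated data. Total counts lay between 17819486 and 35358711 per mouse, so counting error is small for the 10 genes, and counts of PCR reads cover counting error only as a lower bound.

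Alternatives were DESeq2 1.42.0, limma-voom 3.58.1, DESeq2 size factors, other filters on low counts, fits on the groups compared, covariates, overlapping genes added, other prior counts, and each mouse left out in turn. The genes named are the 10 members, Asah1, every gene called in a comparison with at most 10 calls, up to 2 genes per direction with the largest change from each pathway list at an unadjusted p under 0.05 and a mean log2 CPM above 0, the 5 genes most alike to Apob and to Apoa4, and marker lists with their most abundant gene. The members and lists were chosen with earlier results of these data known. The average transcript lengths that tximport can pass on were not used here.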

Additional observations from a re-analysis of the deposited data

Results flagged for a closer look

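In 1 of the 30 combinations of a gene of the 10 and a group, a mouse stood apart from the others of its group. Apob in ASAH+ Etoh-Dox replicate 2 was at 4909 CPM, and the other 4 mice of that group were between 5730.1 and 6001 CPM. The gap to the nearest mouse was 0.752 of the group's range, against a critical value of 0.71 for 5 mice. Chance gives about 1 such mouse in 20 groups. Without this mouse the log2 fold change of Apob was 0.048 in the genetic comparison and -0.23 in the dietary comparison.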

How the results depend on the processing

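The count of the 10 genes called was 0 in each of the 4 comparisons in edgeR's quasi-likelihood test, and it was 0 with each of the 13 mice left out in turn and in 41 of 46 other alternatives. The 46 include an adjusted p under 0.05 on the same edgeR fit of each comparison, which could only give 0. The 5 exceptions were DESeq2 fits, and they were all the DESeq2 fits of a comparison with the ASAH+ Etoh group. DESeq2 is the tool that the study used. At an unadjusted p under 0.05 edgeR gave 2, 4, 4 and 4, and with a mouse left out 1 to 3, 2 to 6, 3 to 6 and 4 to 5. Over all 14317 genes it gave 409, 1044, 1316 and 1445. With a mouse left out that was 302 to 722, 759 to 1174, 881 to 1853 and 1051 to 1844. With Gm44805 added to Apoc2 the counts were 2, 4, 3 and 4 of the 10. Over all 14316 genes of that fit they were 409, 1043, 1313 and 1446. On all 13 mice DESeq2 called 2 in the dietary comparison (Apoc2 -0.44, Apob -0.29), 2 between ASAH- Etoh-Dox and ASAH+ Etoh mice (Apob -0.30, Apoa1 0.53) and 4 for both Etoh-Dox groups (Apoc2 -0.40, Apob -0.29, Mttp -0.22, Apoa1 0.39), all as log2 fold changes. On the groups compared alone it called 1 (Apoc2 -0.44) and 2 (Apob -0.30, Apoa1 0.53). Over all genes those fits called 113 in the dietary comparison and 168 between ASAH- Etoh-Dox and ASAH+ Etoh mice. The cause of these differences was not tested. DESeq2 and edgeR on the groups compared alone were not run for both Etoh-Dox groups, which use all mice.

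Of the 40 log2 fold changes 25 kept their sign under all alternatives, among them those of Apoc2 and Apoa1 in all 4 comparisons and of Apob and Mttp in the 3 comparisons with the ASAH+ Etoh group. For Apoc2 with the overlapping gene Gm44805 added the values were -0.15 in the genetic comparison, -0.37 in the dietary comparison, -0.22 between ASAH- Etoh-Dox and ASAH+ Etoh mice and -0.30 for both Etoh-Dox groups. The other 15 changed sign, and for these the cause was not tested.

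In the genetic comparison Apob, reported as 0.00071, was -0.0016 in limma-voom and -0.0048 with the Dbp-to-Arntl ratio as a covariate. With the length index, which was added after seeing the data, the dietary comparison gave -0.042 for Apoe and -0.049 for Apoa2; ASAH- Etoh-Dox minus ASAH+ Etoh gave -0.0011 for Apoe, 0.10 for Apoa5, -0.48 for Apoa4 and -0.12 for Apoc3; and both Etoh-Dox groups gave -0.021 for Apoe and 0.0096 for Apoa5. With at least 10 counts in every mouse Apoa4 was 0.0018 for both Etoh-Dox groups, reported as -0.00098.

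Replicate numbers do not pair the mice: over genes, residuals of same-number mice had a mean r of -0.046 in 12 pairs and of others 0.013 in 44. With the number as a replicate block, the genetic comparison gave -0.029 for Apoh and -0.021 for Apob, and the dietary comparison gave -0.031 for Apoa2.

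With mice left out in turn, the genetic comparison ranged from -0.018 to 0.052 for Apoh, -0.031 to 0.048 for Apob, -0.035 to 0.050 for Mttp, -0.18 to 0.11 for Apoa5 and -0.81 to 0.11 for Apoa4. The dietary comparison ranged from -0.038 to 0.056 for Apoa2 and -0.48 to 0.037 for Apoa4. Between ASAH- Etoh-Dox and ASAH+ Etoh mice the range was -0.41 to 0.62 for Apoa4 and -0.031 to 0.074 for Apoc3, and for both Etoh-Dox groups -0.35 to 0.33 for Apoa4. Of the values that kept their sign with mice left out, 8 moved by over 1.5 times, 4 of them given beside the result. The others were Apoh (-0.11 to -0.024) and Apoe (0.025 to 0.15) in the dietary comparison and Apoa2 (0.060 to 0.12) and Apoc3 (-0.16 to -0.056) for both Etoh-Dox groups.

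The number of correlated pairs among the 10 genes was 1, and 3 with no group mean removed. It ranged from 0 to 2 with mice left out in turn, which was also chosen after seeing the data. For Apob and Apoh r was between 0.62 and 0.94 with a mouse left out. The 40 relations with other measures gave 0 under every alternative run, added prior count and group mean choices included, with 2 at an unadjusted p under 0.05 in permutation tests of r. Groups of 4 and 5 mice, from a design with Dox and genotype partly joined, limit what could be detected here. The lowest count of any of the 10 genes in a mouse was 1827, and the part of read depth was not tested.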
